A study of Sus scrofa with 23 samples.

Results

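The genes described here are CFTR and 9 other genes of chloride channels found in kidney: CLCN2, CLCN3, CLCN4, CLCN5, CLCN6, CLCN7, BSND, ANO1 and ANO6. They were picked by symbol from the table that pairs each RefSeq transcript with a gene, and all 10 were present among its 26687 symbols. RNA from the kidney cortex of newborn pigs had been sequenced after removal of ribosomal RNA, with 1 library for each of 23 pigs. The genotype labels were CFTR-/- for 11 libraries (CF), CFTR+/- for 6 (HET) and wild-type for 6 (WT), and the study also compares CF with the 12 non-CF libraries, which are the WT and HET libraries together. By the study's methods, CF piglets were bred from CFTR+/- parents and studied within hours of birth. The labels share tissue and age across all groups, and give neither the litter nor the sex of a pig, nor how the CFTR allele had been disrupted.

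The libraries held from 32901281 to 52952273 estimated counts, a count being a read pair or read that kallisto assigned to a transcript, in part where transcripts share it. Levels are given as CPM (counts scaled to a common library total, using edgeR's TMM factors) for comparisons between libraries, and as TPM (the deposited values, which take transcript length into account) for comparisons between genes. All 10 genes passed the filter on low counts. The label of the tissue was checked against marker genes: the summed TPM of 8 proximal tubule markers lay between 1626 and 3125 in every library, and of 4 urothelial markers UPK2 and KRT5 had mean TPM of 0.0557 and 0.0212, while UPK1B was at 5.16 and UPK3A at 10.04. The summed level of these 4 was 8.18 to 29.3 TPM over all libraries, and its part in the results was not tested. For comparison within smaller groups, the pig numbers were divided into 2 sets that each hold all 3 labels. The first number set was pigs 1 to 6 and 12 to 18 (13 libraries), and the second was pigs 7 to 11 and 19 to 23 (10 libraries). The numbers run from 1 to 23 without a break, and no label defines these sets or names a batch. With the labels as a term, 2077 of 21434 genes differed between these sets (9.69%), so values within each set are given where they bear on a result. Because these are whole pieces of cortex, fewer cells of a type and less RNA per cell cannot be told apart.

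CFTR is a chloride and bicarbonate channel of apical epithelial membranes that opens after phosphorylation by protein kinase A and gating by ATP, and its loss causes cystic fibrosis. The CLC family has channels at the plasma membrane and chloride/proton exchangers of endosomes and lysosomes: ClC-2 (CLCN2) is a channel opened by hyperpolarization, ClC-3, ClC-4 and ClC-5 work in the endosomal pathway, ClC-6 in late endosomes and ClC-7 in lysosomes. Barttin (BSND) is an accessory subunit of chloride channels in the basolateral membrane of the thick ascending limb and distal nephron. ANO1 (TMEM16A) is a calcium-activated chloride channel, and ANO6 (TMEM16F) is a calcium-activated scramblase of membrane lipids that also passes ions.

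CFTR and ANO1 gave results that depend on which annotated transcript received the reads, so the places where those transcripts begin are shown first. In the assembly Sscrofa11.1, CFTR spans positions 28627717 to 28818209 of chromosome 18 on the minus strand, and RefSeq annotates 4 transcripts, each of 27 exons. The curated transcript, NM_001104950.1, is 4449 bases of coding sequence alone, with no untranslated ends. It starts in an exon of 53 coding bases at chr18:28816919-28816971. The predicted transcripts XM_021078522.1, XM_021078520.1 and XM_021078523.1 start in other first exons, 349 bases or more upstream of that exon, skip it, and are annotated as coding from a later start at chr18:28779427-28779456. They also reach 1491 bases further at the 3′ end. The coding bases of the first exon of the curated transcript and the first coding stretch of the predicted ones are, 5′ to 3′ on the minus strand with the start codon in capitals:
CFTR curated start: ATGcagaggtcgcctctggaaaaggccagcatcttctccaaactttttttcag
CFTR predicted later start: ATGttctatggaatcatattatatttaggg

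ANO1 lies on chromosome 2 from 3202269 to 3373409, also on the minus strand, with 13 predicted transcripts. They begin at 3 places. A first exon at chr2:3373271-3373409 or chr2:3356549-3356841 contains a start codon. In the remaining pair of transcripts, a downstream first exon at chr2:3286939-3287322 or chr2:3287352-3287451 is noncoding and translation is annotated to begin within the next exon. An internal coding exon of 66 bases at chr2:3258085-3258150 is present in 9 of the 13 transcripts and absent from the others; both transcripts with a downstream first exon carry it. The first 30 coding bases from each start (start codon in capitals) and the 66-base exon (exon in capitals, 6 intron bases on either side) are:
ANO1 first start: ATGgaggagacgacgctggaccctctgctg
ANO1 second start: ATGctggagggcgacatcggcctcgaggga
ANO1 downstream start: ATGagggtcaacgagaagtactcgacactc
ANO1 66-base exon: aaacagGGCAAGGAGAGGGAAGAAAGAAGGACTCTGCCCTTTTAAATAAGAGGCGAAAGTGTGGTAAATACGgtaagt

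CFTR set the WT libraries apart from those of both other labels, in the direction opposite to a loss of its transcript. Its level was 1.27 CPM in the lowest, 2.24 in the median and 3.67 in the highest of the 6 WT libraries. In the 6 HET libraries it was 9.40, 12.1 and 17.5 CPM, and in the 11 CF libraries 12.5, 20.7 and 23.5 CPM. In estimated counts this was 60 to 178 in WT, 442 to 699 in HET and 614 to 1040 in CF, so the WT values rest on the fewest reads. Every HET and every CF library lay above every WT library. CF and HET overlapped: 8 of the 11 CF libraries lay above the highest HET library, HET15, and 3 did not. The libraries are therefore named here only as labelled CF, HET or WT, and CFTR protein and channel function were not measured by these files.

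**Figure D1:**
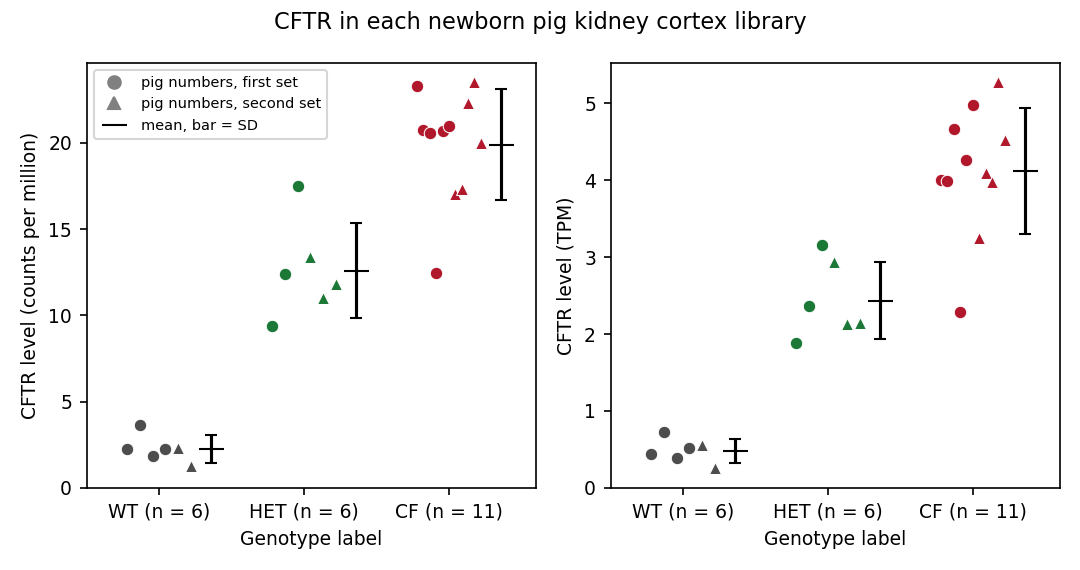
CFTR in each of the 23 libraries by genotype label, in CPM (left) and TPM (right). Points are libraries, the shape gives the pig number set, and the bar beside each group is the mean with the SD. All HET and CF libraries sit above all WT libraries in both units, and the lowest CF library falls among the HET libraries.

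In mean TPM, CFTR was 0.482 ± 0.159 (SD, n = 6) in WT, 2.43 ± 0.501 (SD, n = 6) in HET and 4.12 ± 0.821 (SD, n = 11) in CF. The ratio of these means was 5.05 for HET over WT, 8.55 for CF over WT and 1.69 for CF over HET. The HET mean was close to the midpoint between the WT and CF means: on the TPM scale it was 2.43 against a midpoint of 2.30, a difference of 0.134 (SE 0.241), and on the CPM scale it was 12.6, with a difference of 1.49 from the midpoint (SE 1.23). Both differences from the midpoint were within 2 SE, at a precision set by 6 HET and 6 WT libraries. This holds for these linear scales only. The mean log2 CPM was 1.14 in WT, 3.63 in HET and 4.30 in CF, so on the log2 scale HET lay nearer to CF than to WT.

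By the quasi-likelihood test of edgeR, adjusted over all genes by Benjamini-Hochberg, CFTR was 3.14 higher on the log2 scale in CF than in WT (SE 0.188, adjusted p = 1.24e-10) and was the 1 member called in that comparison, where 0.336% of 21434 genes were called. For HET against WT the log2 difference was 2.47 (SE 0.194, adjusted p = 5.13e-08), again the 1 member called. It was also the 1 gene of 21434 called there (0.00467%). CPM ranges without overlap in the higher direction were found for 0.0980% of genes in CF against WT and for 0.406% in HET against WT.

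For CF against HET, CFTR had a log2 difference of 0.66 (SE 0.161, 95% interval 0.33 to 0.99, adjusted p = 0.193 by edgeR). No member was called, as no gene of 21434 was (0%); 2107 genes had an unadjusted p under 0.05, and DESeq2 called 57 genes and limma 0. DESeq2 called CFTR here (adjusted p = 0.0197), as did edgeR in the second number set alone (log2 difference 0.74, adjusted p = 0.0422, with 2.42% of genes called), while over all alternatives the adjusted p ran from 0.0197 to 0.955. Against the 12 non-CF libraries, which mix the low WT and the higher HET values, CF was 1.42 higher (SE 0.354, adjusted p = 0.0654 by edgeR), with 0.349% of 20921 genes called. The study's methods name the Mann-Whitney U test for this comparison. Its exact form, adjusted here over all genes, gave CFTR an adjusted p of 0.0216.

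Within each number set the order of the labels was the same. In the first set the CFTR means were 0.518 TPM in 4 WT, 2.47 in 3 HET and 4.03 in 6 CF libraries, and in the second set 0.408 in 2 WT, 2.40 in 3 HET and 4.22 in 5 CF libraries. The difference between the sets in the effect of CF against non-CF, which pools the WT and HET libraries, was -0.16 on the log2 scale (SE 0.728, adjusted p = 0.969 by edgeR).

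The reads assigned to CFTR were spread over its 4 transcripts, most of them over the curated transcript and XM_021078522.1. The curated transcript received 16.9 to 92.2 estimated counts in WT, 209 to 233 in HET and 297 to 480 in CF. XM_021078522.1 received from under 1 to 56.1 in WT, 157 to 426 in HET and 280 to 568 in CF. Both were thus higher in every HET and CF library than in any WT library. XM_021078520.1 was under 0.5 counts in 4 of 6 WT, 4 of 6 HET and 8 of 11 CF libraries, and XM_021078523.1 in 1, 3 and 8 libraries, respectively.

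As a share of the CFTR count, the curated transcript held 42.0% ± 14.97 (SD, n = 6) in WT, 39.8% ± 5.39 (SD, n = 6) in HET and 48.0% ± 4.06 (SD, n = 11) in CF. The CF share was 8.23 percentage points above the HET share (exact permutation test, two-sided, p = 0.00299, adjusted p = 0.0218 over 12 share comparisons). It was 5.98 points above the WT share, within the WT spread (exact permutation p = 0.224, adjusted p = 0.343). XM_021078523.1 held 26.6% ± 20.7 (SD, n = 6) in WT, 7.83% ± 8.75 (SD, n = 6) in HET and 3.33% ± 6.56 (SD, n = 11) in CF, with a difference of -23.3 points between CF and WT (exact permutation p = 0.00364, adjusted p = 0.0218). XM_021078522.1 held 26.1% in WT, 49.97% in HET and 47.5% in CF. Its CF share was 21.4 points above the WT share (exact permutation p = 0.00792, adjusted p = 0.0317), a call that was lost when shares of TPM were used (17.5 points, exact permutation p = 0.0125, adjusted p = 0.0501). The predicted transcripts differ from each other only in their first exons, and from the curated one in the first exon and the 3′ extension, so the division among transcripts rests on few reads in WT, and the files do not give coverage along the gene.

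**Figure D2:**
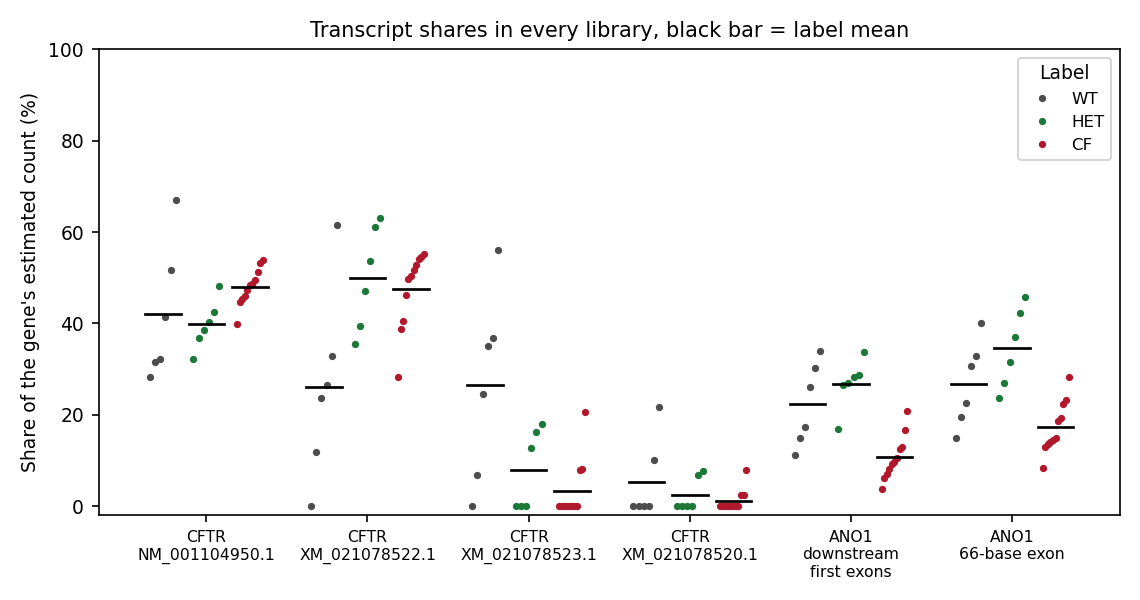
Share of the estimated count of CFTR given to each of its 4 transcripts, and share of the ANO1 count given to transcripts with a downstream first exon or with the 66-base exon, in percent by label. Points are libraries and black bars are label means. The WT points of XM_021078522.1 and XM_021078523.1 spread widely, with SDs of 20.98 and 20.7 percentage points, and CF has the lowest mean for both ANO1 features.

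None of the genes around CFTR passed the tests between labels. Within 1 Mb on either side the annotation lists 11 genes, of which 10 passed the filter; ASZ1, a germ cell gene 40.9 kb beyond the 5′ end, had a mean TPM of 0.0133 and did not. None of the 10 was called by edgeR in CF against WT, HET against WT or CF against HET. The shares of all genes called there were 0.336%, 0.00467% and 0%. Of the 10 neighbours, 2 had an unadjusted p under 0.05 in CF against WT, as did 2991 of all 21434 genes. These were MET, the hepatocyte growth factor receptor 608 kb away (log2 difference 0.29, SE 0.118, adjusted p = 0.250), and CTTNBP2, a cortactin-binding protein gene 54.6 kb beyond the 3′ end (-0.17, SE 0.0660, adjusted p = 0.225). The widest interval of the tested neighbours was that of ANKRD7, at a mean TPM of 0.0573. The remaining log2 differences in CF against WT ran from -0.08 for CAPZA2, an actin capping protein, to 0.60 for WNT2 (SE 0.366, adjusted p = 0.490), a Wnt ligand at a mean TPM of 0.456. CTTNBP2 overlaps LSM8 in genome position, and WNT2 overlaps LOC106506804. Whether this affects their counts was not tested.

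**Figure D3:**
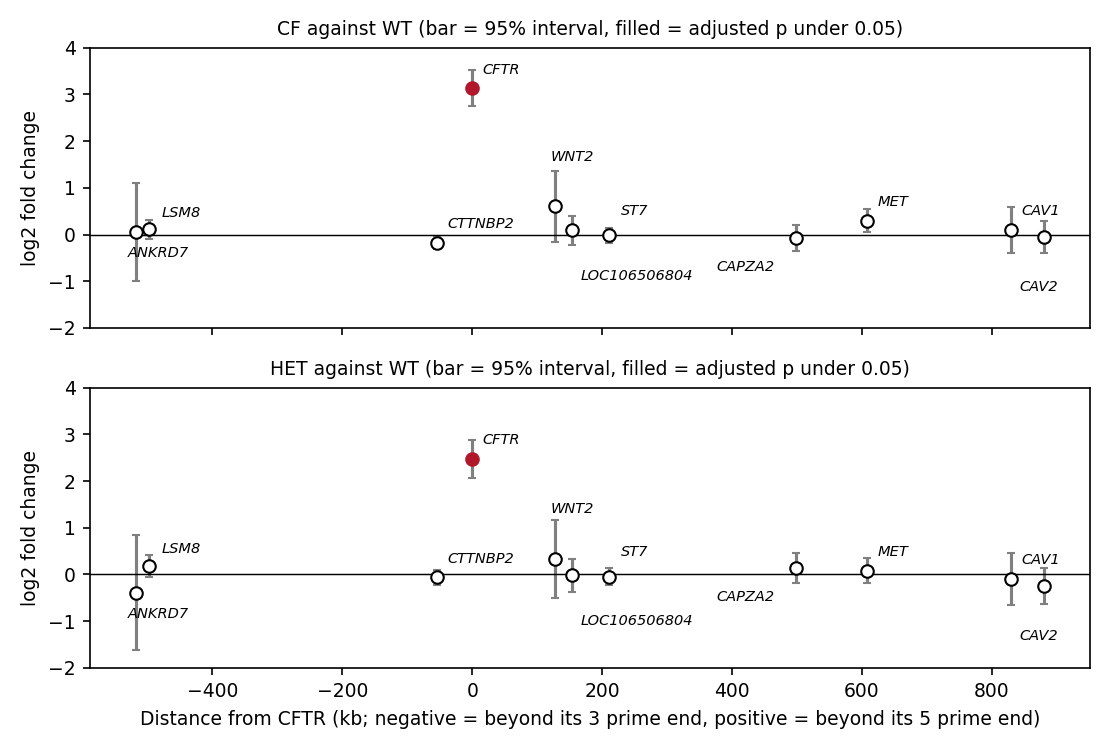
Log2 fold change of CFTR and of the tested genes within 1 Mb against distance from CFTR, for CF against WT (top) and HET against WT (bottom). Bars are 95% intervals and filled points have an adjusted p under 0.05. CFTR is filled in both panels, at 3.14 and 2.47, and no neighbour is.

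Among the 10 genes, the order of levels per transcript length was led by CLCN5 and CLCN3, while CLCN4, also an endosomal exchanger, was at the lower end. CLCN5, the gene mutated in Dent disease, had the highest median at 90.8 TPM in WT, 83.0 in HET and 94.9 in CF, and it lay above CLCN3 in 23 of 23 libraries. CLCN3 followed at 44.5, 42.8 and 46.8 TPM. The annotated CLCN5 transcript is short (2306 bases, of which 2241 code), whereas those of CLCN3 have 4968 to 5219 bases. Next came ANO6, at 17.6, 17.3 and 17.5 TPM, then CLCN7 at 12.4, 11.5 and 13.3 and BSND at 11.4, 11.3 and 11.4. CLCN7 and BSND overlapped, with CLCN7 higher in 17 of 23 libraries. ANO1, CLCN6 and CLCN2 formed a group between 2.84 and 5.29 TPM by label median whose ranges overlapped.

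CFTR changed its place in this order with the label. In WT it was the lowest of the 10, below CLCN4 in 6 of 6 libraries, with medians of 0.479 and 0.935 TPM. In HET and in CF it lay above CLCN4 in every library (6 of 6 and 11 of 11). In CF its median of 4.09 TPM fell into the range of ANO1, CLCN6 and CLCN2: CFTR was above CLCN2 in 5, above CLCN6 in 6 and above ANO1 in 4 of 11 CF libraries. CFTR made up 0.255% ± 0.0929 (SD, n = 6) of the summed TPM of the 10 genes in WT, 1.37% ± 0.279 (SD, n = 6) in HET and 2.09% ± 0.439 (SD, n = 11) in CF, against 47.2%, 44.4% and 46.1% for CLCN5.

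**Figure D4:**
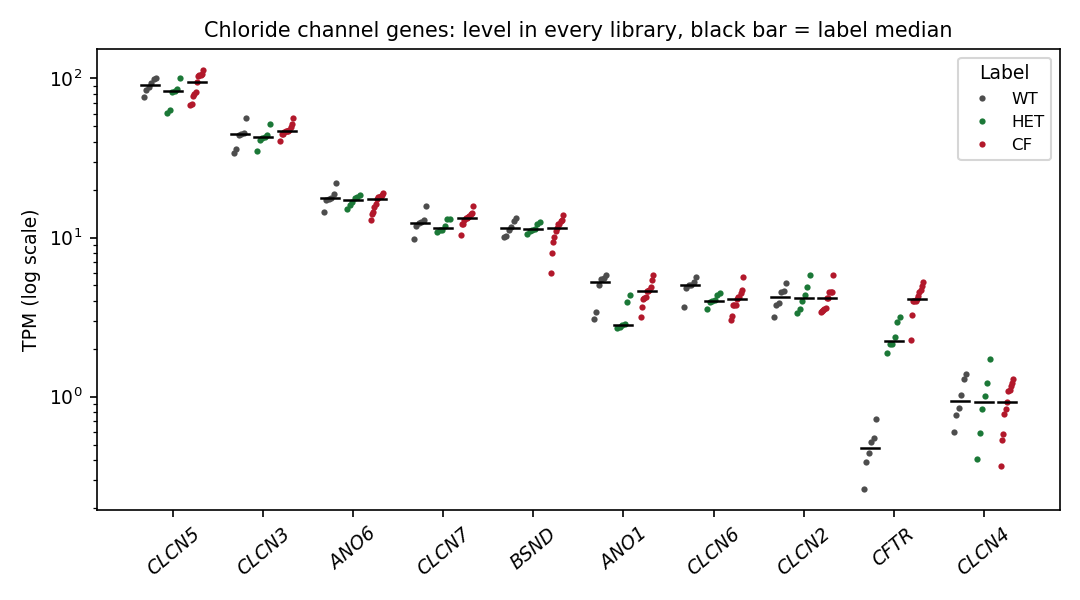
Level of each of the 10 genes in every library, in TPM on a log axis, by genotype label, with genes ordered by their median over all libraries. Points are libraries and black bars are label medians. For CFTR all WT points lie below all HET and CF points, with label medians of 0.479, 2.25 and 4.09 TPM, and the HET and CF points overlap.

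None of the other 9 genes was called by edgeR in any of the 4 comparisons, in which between 0% and 0.349% of all genes were called. The log2 differences of these 9 genes in CF against WT lay between -0.18 and 0.23, around a median over all tested genes of -0.00. In CPM, WT16 was the highest WT library for 7 of the 10 genes, HET15 the highest HET library for 5 and CF1 the highest CF library for 6. HET19 was the lowest HET library for 6, and WT22 and CF4 were the lowest of their labels for 4 each. The median over all 10 genes was 0.03, with 6 higher and 4 lower. The intervals were of unequal width: CLCN4, the least abundant of the 9, had a 95% interval of -0.62 to 0.60, while ANO6 had one of -0.19 to 0.17.

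**Figure D5:**
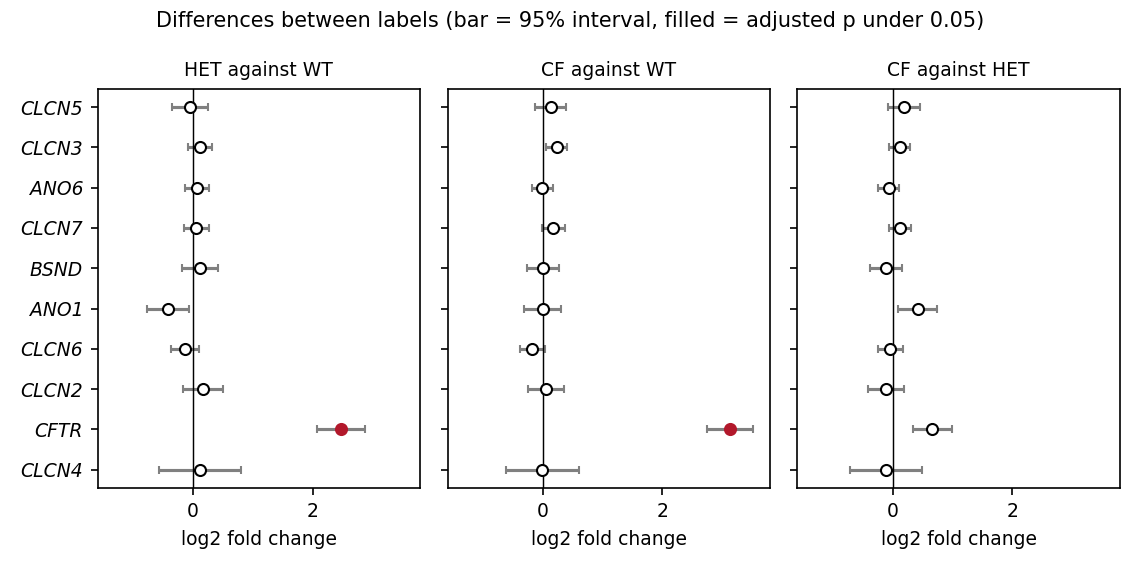
Log2 fold change of each gene between labels in edgeR's fit with 3 labels, with 95% intervals; filled points have an adjusted p under 0.05. CFTR is filled for HET against WT and CF against WT, and no other gene is filled; the ANO1 points lie at -0.42 for HET against WT and 0.41 for CF against HET.

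Of the channels at the plasma membrane, ANO1 varied the most between labels after CFTR. It was 11.9, 20.04 and 25.9 CPM (lowest, median and highest) in WT, 10.6, 12.9 and 19.98 in HET and 15.1, 18.3 and 23.6 in CF. All 6 HET libraries lay below the WT median and all 11 CF libraries above the HET median, but the ranges overlapped. The log2 difference was -0.42 for HET against WT (SE 0.174, adjusted p = 0.589), 0.41 for CF against HET (SE 0.155, adjusted p = 0.393) and -0.01 for CF against WT (SE 0.152, adjusted p = 0.991), all by edgeR.

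These differences were unequal in the number sets: HET against WT was -0.44 in the first set alone and -0.05 in the second, and CF against HET was 0.13 and 0.73. For CF against WT the values were of opposite sign, -0.31 in the first set alone and 0.68 in the second. In the second set the 5 non-CF libraries ran from 10.6 to 13.6 CPM and the 5 CF libraries from 16.1 to 23.6 CPM, without overlap, as was also so in this direction for 2.23% of 21434 genes. In the first set the 7 non-CF libraries ran from 12.2 to 25.9 CPM and enclosed the 6 CF libraries at 15.1 to 20.99 CPM. The log2 difference of CF from non-CF was 0.71 in the second set alone (edgeR's adjusted p = 0.0137, with 2.27% of genes called) and -0.13 in the first (adjusted p = 0.842). The test of the difference between those effects gave 0.83 (SE 0.202, p = 0.000382, edgeR's adjusted p = 0.124), in a test that called 0.0191% of 20921 genes and no member.

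The shares of the ANO1 transcripts are given as a description. The genes and exons other than those of CFTR whose shares are given were chosen after the transcript values had been seen, so these shares were not tested. Transcripts with a downstream first exon held 11.3%, 21.8% and 34.0% of the ANO1 count in the lowest, median and highest WT library, 16.8%, 27.7% and 33.7% in HET, and 3.78%, 9.59% and 20.9% in CF. The CF libraries thus lay mostly below those of both other labels, with some overlap. The mean share differed by -16.1 percentage points between CF and HET and by -11.6 points between CF and WT. HET and WT differed by 4.51 points, which is less than the SD of single libraries of either label (9.14 in WT and 5.53 in HET). The means were 22.2% in WT, 23.9% in HET and 11.145% in CF in the first number set, and 22.6%, 29.8% and 10.2% in the second, so the CF share was lowest in both.

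Transcripts with the 66-base exon, which include the downstream-start pair, held 26.8% ± 9.41 (SD, n = 6) of the ANO1 count in WT, 34.6% ± 8.68 (SD, n = 6) in HET and 17.3% ± 5.69 (SD, n = 11) in CF. The difference between CF and HET was -17.3 points and that between CF and WT -9.48 points, the latter close to the SD of single WT libraries. That SD describes single libraries and is not the error of a difference between means. Since the same transcripts carry the downstream start and the exon, these shares are not separate observations. A further alternative exon of 12 bases was held by 99.6%, 96.6% and 96.9% of the count in WT, HET and CF, and one of 78 bases by 73.2%, 74.7% and 74.1%.

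CLCN2, the hyperpolarization-activated channel, was 8.41, 10.9 and 16.3 CPM in WT, 8.98, 12.5 and 17.1 in HET and 8.96, 11.7 and 15.4 in CF, which overlapped throughout. Its log2 difference was 0.05 for CF against WT (SE 0.145) and 0.17 for HET against WT (SE 0.164). It was the 1 of 10 members called between the number sets, where 9.69% of all genes were: with the labels as a term it was -0.37 in the second set relative to the first (SE 0.0976, edgeR's adjusted p = 0.0209). BSND was 22.9, 26.3 and 34.6 CPM in WT, 27.8, 28.8 and 31.9 in HET and 17.03, 27.5 and 36.3 in CF. The HET libraries varied least (SD 1.56 CPM) and the CF libraries most (6.06 CPM), and 6 of the 11 CF libraries lay below every HET library. The BSND log2 difference was 0.00 for CF against WT (SE 0.129) and -0.12 for CF against HET (SE 0.129, adjusted p = 0.808 by edgeR).

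Among the endosomal exchangers, CLCN3 had the largest difference in CF against WT after CFTR. It was 164, 192 and 250 CPM in WT, 188, 213 and 229 in HET and 197, 220 and 288 in CF. All 11 CF libraries lay above the WT median, yet only 2 lay above the highest WT library, WT23. The log2 difference was 0.23 (SE 0.0864, 95% interval 0.05 to 0.41, p = 0.0137, edgeR's adjusted p = 0.218); without WT23 it was 0.31 with an adjusted p of 0.0638, and within the first and second number sets alone it was 0.35 and 0.03. CLCN5 was 157, 179 and 193 CPM in WT, 130, 181 and 194 in HET and 132, 189 and 259 in CF, with a log2 difference of 0.13 in CF against WT (SE 0.129). Its CF libraries spread on both sides of WT, 5 above every WT library and 3 below. CLCN4 was 2.40, 4.05 and 6.02 CPM in WT, 1.83, 3.91 and 8.41 in HET and 1.83, 4.11 and 6.81 in CF.

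CLCN3 transcripts with a coding exon of 76 bases, which is not a multiple of 3 and leads to another annotated end of the protein, held 45.5% ± 5.45 (SD, n = 6) of the count in WT, 41.9% ± 6.15 (SD, n = 6) in HET and 48.1% ± 4.77 (SD, n = 11) in CF. The largest of these gaps, CF above HET by 6.15 points, was about the size of the SD in HET. It was unequal in the number sets. In the first set the 3 HET libraries, at 42.9% to 49.4%, lay within the range of the 6 CF libraries, 39.3% to 56.3%. The HET mean was the higher there. In the second set the 3 HET libraries ran from 34.7% to 38.2% and the 5 CF libraries from 46.8% to 53.2%, without overlap. These shares were not tested.

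The late endosomal and lysosomal genes CLCN6 and CLCN7 had differences of opposite sign in CF against WT. CLCN6 was 14.9, 21.6 and 22.4 CPM in WT, 15.96, 19.1 and 21.5 in HET and 14.6, 17.4 and 24.0 in CF. Only 1 of 11 CF libraries lay above its WT median, and its log2 difference was -0.18 (SE 0.0996, adjusted p = 0.444 by edgeR). In the second number set alone this was -0.02. CLCN7 was 27.2, 36.5 and 41.6 CPM in WT, 32.9, 36.4 and 43.7 in HET and 36.1, 38.1 and 52.4 in CF. In 10 of 11 CF libraries it lay above the WT median, and its log2 difference was 0.17 (SE 0.0922, adjusted p = 0.416 by edgeR). Without WT22 this was 0.10, and within the first and second number sets alone it was 0.08 and 0.39. The CLCN7 transcript with the upstream start held 17.1%, 16.5% and 16.7% of the count in WT, HET and CF. ANO6 was 101, 108 and 137 CPM in WT, 110, 118 and 128 in HET and 95.5, 109 and 149 in CF, with log2 differences between -0.07 and 0.06 in the pairwise comparisons of labels.

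Other genes of the same processes were counted as lists. Over all genes, edgeR called 0.336% in CF against WT, 0.00467% in HET against WT, 0% in CF against HET and 0.349% in CF against non-CF. A list with none called is therefore close to the share over all genes. Of 33 other anion channel genes tested, none was called in any comparison, and 7 had an unadjusted p under 0.05 in CF against WT, as did 2991 of all 21434 genes; the median log2 difference was 0.01. The most abundant was CLIC4, an intracellular channel protein (mean 72.8 TPM, log2 difference 0.20, SE 0.0832, adjusted p = 0.279 by edgeR). Of 18 genes that help CFTR to fold or reach the membrane, none was called. The most abundant were the chaperones HSPA8 (log2 difference 0.01, SE 0.225) and HSP90AA1 (-0.32, SE 0.168, adjusted p = 0.405 by edgeR). None of the 3 accessory subunits of the CLC exchangers was called: TMEM9 was at 0.06 (SE 0.0807), TMEM9B at 0.06 (SE 0.0933) and OSTM1, the subunit of ClC-7, at 0.38 (SE 0.0987, adjusted p = 0.0758 by edgeR).

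Of 20 genes of the WNK kinases, the cation-chloride cotransporters and their potassium channels, 14 had a lower and 6 a higher fitted level in CF than in WT, none was called, and the median log2 difference was -0.10. Over all 21434 genes, 10756 had a lower fitted level. An unadjusted p under 0.05 was found for 8 of the 20, against 2991 of all genes. The most abundant were SLC12A1, the Na-K-2Cl cotransporter of the thick ascending limb (-0.32, SE 0.0977, adjusted p = 0.115 by edgeR), and SLC12A3, the thiazide-sensitive cotransporter of the distal convoluted tubule (-0.77, SE 0.202, adjusted p = 0.0780).

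Markers of kidney cell types were compared in the same fit. Of the 13 marker lists, one held a called gene in CF against WT: AQP1, the water channel of the proximal tubule and thin limb, was 0.93 higher (SE 0.187, adjusted p = 0.0303 by edgeR). All 8 proximal tubule markers had a higher fitted level in CF than in WT, with a median log2 difference of 0.15, and the other 7 did not pass the test. In HET against WT 7 of the 8 had a higher fitted level (median 0.26), and in CF against HET 4 did (median 0.03), with none called. The summed level of the 4 markers of the distal convoluted tubule was 408 to 714 TPM in WT, 181 to 909 in HET and 184 to 332 in CF. The HET range enclosed those of both other labels, and differences in this sum were not tested. Of these 4 markers, none was called: CALB1, a calcium-binding protein, was at -1.38 (SE 0.405, adjusted p = 0.110 by edgeR) and SLC12A3 at the value given above, whereas TRPM6 was at -0.09 (SE 0.108) and PVALB at 0.07 (SE 0.318). The summed level of 7 principal cell markers was 159 to 259 TPM in WT, 137 to 185 in HET and 115 to 229 in CF. The part of these markers in the CFTR and ANO1 values was not tested.

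The genes whose levels followed CFTR most closely over the 23 libraries were AK8, C8G, LANCL1, PUM2 and RSBN1, with Spearman's rho of 0.816, 0.787, 0.783, 0.781 and 0.781 on log2 CPM. The lowest rho values were those of LOC102158889 (-0.803), GPBAR1, a bile acid receptor (-0.791), and NT5C1A, a cytosolic nucleotidase (-0.789). These 23 points share the label differences, and after each label's mean had been subtracted the rho of AK8 was 0.368, that of C8G 0.245 and that of PUM2 -0.05. Of the other 9 members, CLCN7 (0.519) and CLCN3 (0.513) had the highest rho with CFTR and CLCN6 the lowest (-0.282). With label means subtracted, these were 0.256, 0.0919 and 0.0721.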

How the data were processed

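RNA from newborn pig kidney cortex was sequenced by the authors as stranded, ribosomal RNA-depleted libraries, 1 per pig. The deposited files give, for each of 77689 RefSeq transcripts of Sscrofa11.1, estimated counts that the authors made with kallisto, which assigns reads to transcripts and divides those that several transcripts share. The authors' TPM values in the same files correct these counts for effective transcript length and set them to 1 common total per library. Whether the strand option of kallisto was used is not given in the sources used here.

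Counts were summed per gene symbol and rounded. Genes passing filterByExpr were tested with the quasi-likelihood F-test of edgeR 4.0.16 (R 4.3.3) after TMM scaling, in 1 fit of 3 labels (21434 genes) and 1 fit of CF against non-CF (20921 genes), with Benjamini-Hochberg adjustment over all genes and a threshold of 0.05. A gene is called when its adjusted p is under 0.05. The labels number the pigs separately, so p-values measure the spread between animals. Pigs were treated as independent, and any likeness between littermates could not be taken into account because the labels give no litter. Transcript shares were compared by exact two-sided permutation tests over libraries, adjusted over 12 comparisons of CFTR transcripts, and shares of other genes were described without a test. Alternatives used DESeq2 1.42.0, limma 3.58.1 on log2(TPM + 0.1), RLE scaling, no expression filter, a term for pig number set, each set alone, each library left out, shares of TPM and, for CF against non-CF, the exact Mann-Whitney U test. Shares of TPM for genes other than CFTR were added after the data had been seen. The tests were checked on simulated data. Fold changes of lists are given as counts and medians, without a test of the list.

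The 10 genes and the lists were chosen with earlier results of these data known. Genes named beyond the 10 are those within 1 Mb of CFTR, list members with an adjusted p under 0.05 (up to 5 a list), the 2 list members with the highest mean TPM, and the 5 highest and 3 lowest Spearman rho with CFTR. One gene that this rule names is not reported here. OSTM1, 1 of the 3 CLC accessory subunits, and the markers TRPM6 and PVALB were named after their values had been seen. Sequences were read from the RefSeq Sscrofa11.1 genome at annotated exon positions. Libraries held 32901281 to 52952273 estimated counts.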

Additional observations from a re-analysis of the deposited data

Results flagged for a closer look

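Among 40 sets of 6 libraries (the WT and the HET libraries, for the CPM of each gene and for each transcript share), 2 held a library far from the other 5, both WT22. For CLCN6, WT22 was at 14.9 CPM, the lowest WT value, and its gap to the next library, at 20.5 CPM, was 0.749 of the range of the group. For the share of the ANO1 count in transcripts with the 12-base exon, WT22 was at 97.5% and the other WT libraries at 100%, so the gap was the whole range (a ratio of 1). Because those 5 libraries are at the upper limit of a share, any lower value would have given that ratio. At the threshold used, chance alone singles out a library in about 1 in 20 groups.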

How the results depend on the processing

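The CFTR differences of CF from WT and of HET from WT stayed past the threshold under all 30 alternatives, at log2 values of 2.88 to 3.51 and 2.15 to 2.78, and CFTR stayed the 1 member called. For CF against HET (0.66 by edgeR, not called), the alternatives gave 0.59 to 0.78. CFTR was past the threshold in the second number set alone (0.74, adjusted p = 0.0422 by edgeR) and with DESeq2 (0.66, adjusted p = 0.0197), so that 2 members (CFTR and ANO1, the latter at 0.73, adjusted p = 0.0270) and 1 member were called in place of 0. For CF against non-CF (1.42 by edgeR, not called), CFTR passed with DESeq2 (1.42, adjusted p = 0.0190), limma (1.80, adjusted p = 0.0365) and the exact Mann-Whitney U test (1.42, adjusted p = 0.0216), and 1 member was called in each. It also passed in edgeR without CF4 (1.48, adjusted p = 0.0467) and without HET15 (1.61, adjusted p = 0.0346). Over the libraries left out in turn the value ran from 1.31 to 1.61 and the members called from 0 to 1. In the second set alone 1 member was called, ANO1 (0.71, adjusted p = 0.0137 by edgeR). The share of XM_021078522.1 in CF against WT fell short of the threshold with shares of TPM (17.5 points, adjusted p = 0.0501 by the exact permutation test). The causes of these changes were not tested. Of 1089 values of the other 9 genes under alternatives, 1019 kept their direction and their side of the threshold, 2 passed it (the ANO1 values above) and 68 changed sign without passing it. Over all genes, DESeq2 called 579 in CF against WT, 29 in HET against WT, 57 in CF against HET and 483 in CF against non-CF, where edgeR called 72, 1, 0 and 73. With edgeR in the second set alone these counts were 57, 17, 525 and 473, and in the first set alone 7, 17, 0 and 0. With the number set as a term, edgeR called 172 in CF against WT, 4 in CF against HET and 148 in CF against non-CF, and the exact Mann-Whitney U test called 47. No paired analysis was possible because the labels give no litter for a library and no pig number occurs under 2 labels. The 60 to 178 counts of CFTR in WT limit the precision of its transcript shares there.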
